A study of Ambystoma mexicanum with 3 samples.

Results

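Myeloid-like nuclei of the amputated axolotl tail tip were selected by their unique molecular identifiers (UMIs, each marking 1 captured RNA molecule) of 5 marker symbols, *Fndc7*, *Apobr*, *Epx*, *Dmbt1* and *Prtn3*. A nucleus was taken when it held at least 3 UMIs of these symbols, from at least 2 of them, and passed a gate on its total UMIs. The gate was 1300 UMIs in the Rom 6 HPA and 0 HPA libraries and 2000 UMIs in the deeper Cont 6 HPA library. This gave 290 selected nuclei among 20850 gated nuclei and 133193 deposited nuclei. They came to 87 nuclei in Rom 6 HPA, 129 in Cont 6 HPA and 74 in 0 HPA. The UMIs of the 5 symbols chose the nuclei, so their levels are a description and are not tested. The remaining 20560 gated nuclei are called the other gated nuclei.

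The study asked which cells of the tail tip hold genes that respond to romidepsin, a class I histone deacetylase inhibitor that blocks tail regeneration in this animal. The distal tail of stage 42 embryos was cut, and nuclei of pooled tail tips were sequenced with the 10x Genomics v3 chemistry. Embryos of the Rom 6 HPA library were kept in 10 μM romidepsin after amputation, those of the Cont 6 HPA library stayed in rearing water, and the 0 HPA library was taken untreated at amputation. HPA stands for hours post amputation.

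Each condition was sequenced as 1 library. The spread between replicates is therefore unknown, conditions were not tested against each other, and the 95% intervals cover counting error only. They do not cover differences between nuclei, embryos or libraries. The libraries held 42537606 to 105765943 UMIs over 31522 to 56936 nuclei. The sample labels give the later time in days and the methods in hours, and hours are used here. The study's text gives the numbers of nuclei of the 6 HPA libraries the other way round, and the labels of the files were kept. *Has2*, a hyaluronan synthase gene that the study followed, had 4.27 CPM (UMIs of the gene scaled to a common total) in the library labelled Rom 6 HPA, 23.2 CPM in Cont 6 HPA and 4.61 CPM in 0 HPA. Any pair of libraries shared 469 to 736 barcodes, and 0 barcodes of selected nuclei.

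Myeloid cells are the granulocytes, monocytes and macrophages of the innate immune system. Granulocytes store peroxidases and proteases in granules, crawl on chemokine and formyl peptide signals, and kill microbes with superoxide from the NADPH oxidase. Macrophages engulf cell remains and are needed for limb regeneration in the axolotl. *Epx* encodes eosinophil peroxidase, *Prtn3* a serine protease of neutrophil granules, *Apobr* a lipoprotein receptor of monocytes and macrophages, and *Dmbt1* a secreted scavenger receptor of mucosal surfaces.

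The 5 symbols did not mark 1 kind of nucleus. Of the 290 selected nuclei, 176 held only *Apobr*, *Epx* or *Prtn3*, 54 held only *Fndc7* and *Dmbt1*, and 60 held both kinds of symbol. These are called the Apobr/Epx/Prtn3 nuclei, the Fndc7/Dmbt1 nuclei and the mixed nuclei, a split made after the data were seen. *Apobr* was found in 108 selected nuclei, and only 8 of these also held *Fndc7* or *Dmbt1*. *Epx* and *Prtn3* were found together in 171 nuclei, and *Fndc7* and *Dmbt1* together in 69. The most frequent combinations were *Apobr* with *Epx* and *Prtn3* and *Epx* with *Prtn3* alone, in 76 nuclei each, followed by *Fndc7* with *Dmbt1* alone in 54.

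**Figure D1:**
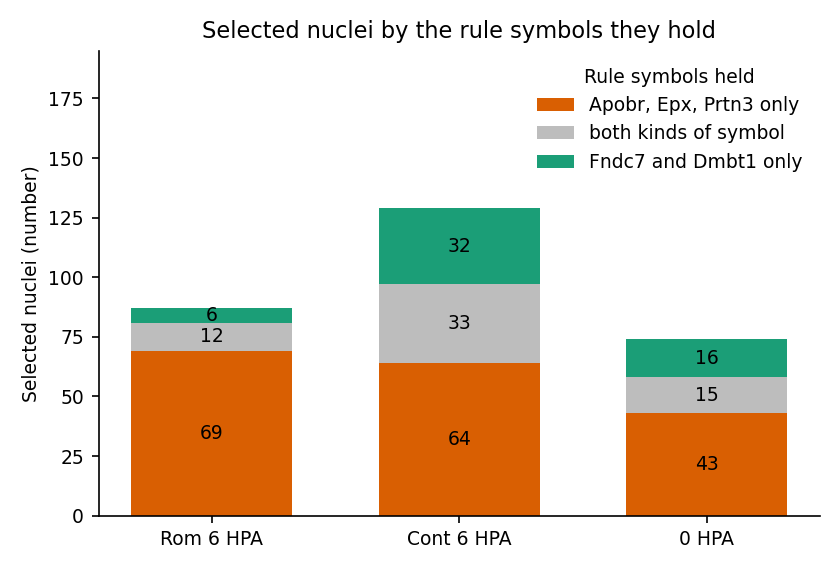
Number of selected nuclei (vertical axis) in each library, split by the rule symbols they hold. Apobr/Epx/Prtn3 nuclei number 69 in Rom 6 HPA, 64 in Cont 6 HPA and 43 in 0 HPA, and Fndc7/Dmbt1 nuclei number 6, 32 and 16.

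The label was then set beside 33 matched symbols that the rule did not use. They came from lists of myeloid surface and signalling genes and NADPH oxidase genes. These lists were chosen with earlier results of these data known, so they are a description and not an independent check. The 33 symbols summed to 820 CPM (95% interval 745 to 901) in Apobr/Epx/Prtn3 nuclei, 284 CPM (216 to 367) in mixed nuclei and 64.6 CPM (34.4 to 110) in Fndc7/Dmbt1 nuclei. Of their 432 UMIs in Apobr/Epx/Prtn3 nuclei, *Clec17a* gave 68 and *Fpr1* 51. The other gated nuclei had 58.2 CPM (56.3 to 60.2). The interval of the Fndc7/Dmbt1 nuclei thus held the level of the other gated nuclei, and the Apobr/Epx/Prtn3 nuclei lay far above it in each library, at 594 CPM in Rom 6 HPA, 955 CPM in Cont 6 HPA and 889 CPM in 0 HPA. By these symbols the name myeloid-like fitted the Apobr/Epx/Prtn3 nuclei and not the Fndc7/Dmbt1 nuclei. The latter are called here only by their symbols.

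The share of nuclei with a UMI of these 33 symbols, after each nucleus was thinned to 1300 UMIs, gave the same order of groups. It was 61.9% (54.3 to 69.1) of 176 Apobr/Epx/Prtn3 nuclei, 30% (18.8 to 43.2) of 60 mixed nuclei and 14.8% (6.62 to 27.1) of 54 Fndc7/Dmbt1 nuclei. The intervals of mixed and Fndc7/Dmbt1 nuclei overlapped here. The other gated nuclei had 7.5% (7.14 to 7.87), and muscle-like nuclei, selected in the same way by 5 sarcomere and calcium release symbols, had 5.99% (5.12 to 6.96). Nuclei selected likewise by endothelial markers had 13.4% (9.26 to 18.4) and those by erythrocyte markers 10.5% (6.23 to 16.3), and both intervals overlapped that of the Fndc7/Dmbt1 nuclei. The median nucleus had 2254 UMIs among Apobr/Epx/Prtn3 nuclei, 2738 UMIs among Fndc7/Dmbt1 nuclei and 3178.5 UMIs among muscle-like nuclei. Without thinning, the shares were 79.5% of Apobr/Epx/Prtn3 nuclei, 18.5% of Fndc7/Dmbt1 nuclei and 14.6% of the other gated nuclei.

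Over the 3 libraries, the edge of the rule was gradual. Just outside it, the share was 11.1% (8.35 to 14.5) of the 440 gated nuclei with 2 rule UMIs, and 12.8% (6.32 to 22.3) of the 78 nuclei with 3 or more UMIs of 1 symbol. Just inside it, the share was 23.1% (14.3 to 34.0) of the 78 selected nuclei with exactly 3 rule UMIs. It was 66.7% (56.8 to 75.6) of the 105 nuclei with 7 or more. The intervals at exactly 3 and at 7 or more rule UMIs did not overlap. The libraries differed at the edge. Nuclei with 3 or more UMIs of 1 symbol had 36.8% (7 of 19) in Rom 6 HPA, 0% (0 of 31, exact upper limit 11.2%) in Cont 6 HPA and 10.7% (3 of 28) in 0 HPA, and selected nuclei with exactly 3 rule UMIs had 27.3%, 12.5% and 33.3%. Nuclei with 2 rule UMIs had 16.3% (22 of 135) in Rom 6 HPA, 9.44% (22 of 233) in Cont 6 HPA and 6.94% (5 of 72) in 0 HPA. In Rom 6 HPA the share just inside the rule was thus above that of nuclei with 2 rule UMIs. It was not above that of nuclei with 3 or more UMIs of 1 symbol, and these Rom 6 HPA intervals overlapped.

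**Figure D2:**
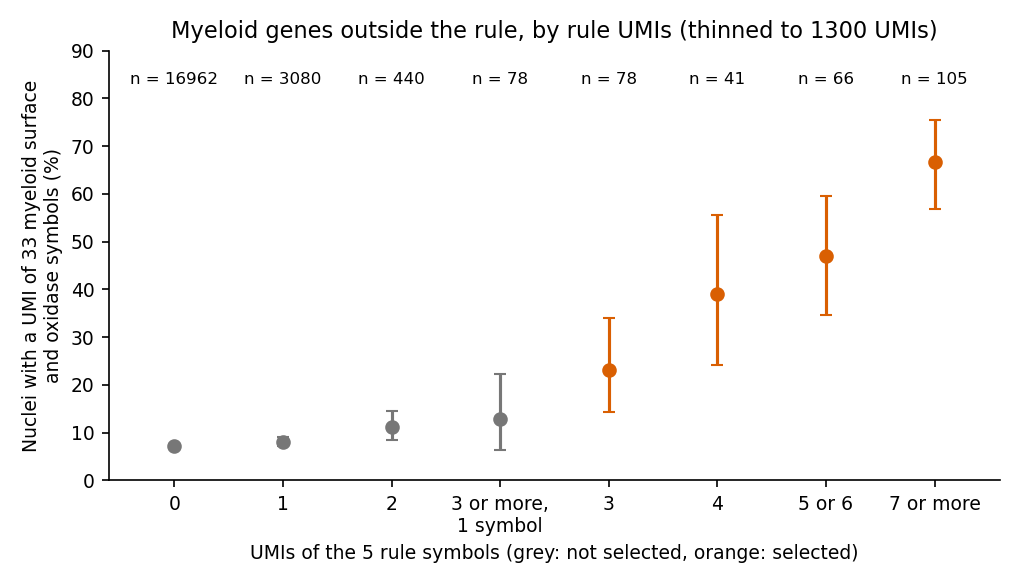
Share of gated nuclei with at least 1 UMI of 33 myeloid surface and oxidase symbols outside the rule (vertical axis, %), by the number of UMIs of the 5 rule symbols, with exact 95% binomial intervals and the number of nuclei above. Nuclei not selected (grey) lie between 7.28% and 12.8%, and selected nuclei (orange) between 23.1% and 66.7%.

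The rule symbols themselves differed in how far they were restricted. *Apobr* had 305 CPM in selected nuclei of Rom 6 HPA, 161 CPM in Cont 6 HPA and 179 CPM in 0 HPA, against 1.81, 1.46 and 0.628 CPM in the other gated nuclei of the same libraries. Selected nuclei held 37.3% to 46.1% of all *Apobr* UMIs of a library. *Epx* had 808, 949 and 1151 CPM in selected nuclei, against 29.98, 31.4 and 15.7 CPM in the other gated nuclei. Only 6.95% to 17.1% of the *Epx* UMIs of a library were in selected nuclei, and nuclei with fewer UMIs than the median of their library had 55.1 CPM in Rom 6 HPA, 61.0 CPM in Cont 6 HPA and 30.5 CPM in 0 HPA. *Prtn3* was spread likewise, with 6.69% to 12.4% of its UMIs in selected nuclei. *Epx* UMIs were thus also present outside the selected nuclei, in 1.96% to 4.32% of thinned muscle-like nuclei, against 51.2% to 70.1% of thinned selected nuclei. The part of free RNA in these UMIs was not tested.

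Against the other gated nuclei, 113 of 3720 features or symbols with at least 30 UMIs in selected nuclei (3.04%) were over 2-fold higher in each of the 3 libraries, and 3 (0.0806%) were over 2-fold lower in each. Beyond the 5 rule symbols, 108 were higher, of which 60 carry a gene symbol. Since the nuclei were chosen by their genes, this is a description of the selected nuclei and not a test. The filter of 30 UMIs also counted selected nuclei only. A symbol that is rare elsewhere passes it only when it is high in selected nuclei. Counts by list below were therefore set in part by the filter and are not read as enrichment.

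Several of the 15 leading symbols are receptor genes. *Cxcr3*, a chemokine receptor gene known chiefly from lymphocytes, had 36.2 CPM in selected nuclei of Rom 6 HPA, 38.7 CPM in Cont 6 HPA and 51.1 CPM in 0 HPA, against 0.213, 0.166 and 0.0571 CPM in the other gated nuclei. *Fpr1*, a receptor for bacterial formyl peptides, had 64.3, 69.2 and 30.7 CPM in selected nuclei, against 0.64, 0.749 and 0.686 CPM in the other gated nuclei. *Tlr5*, the receptor for bacterial flagellin, had 96.4, 71.2 and 35.8 CPM in selected nuclei, against 2.77, 2.2 and 1.6 CPM in the other gated nuclei. These levels rest on 9, 19 and 10 UMIs of *Cxcr3*, 16, 34 and 6 UMIs of *Fpr1* and 24, 35 and 7 UMIs of *Tlr5* in selected nuclei. The lower bound of the log2 ratio was at least 5.56 for *Cxcr3*, 3.78 for *Fpr1* and 3.04 for *Tlr5* in every library. *Tnfrsf1b*, a tumor necrosis factor receptor, and the C-type lectin genes *Clec17a* and *Cd209e* were among the 15 leading symbols as well. By list, 3 of 25 matched genes of myeloid surface and signalling had 30 UMIs in selected nuclei, and all 3 were higher. They were *Clec17a*, *Fpr1* and *Alox5ap*, with 0.978, 0.697 and 1.31 CPM in the other gated nuclei. Genes this rare there pass the filter only when high in selected nuclei, so the filter fixed this count. Of measured cytokine and chemokine genes 2 of 6 were higher (*Tnfrsf1b* and *Il1r2*), and of pattern recognition genes 1 of 2 (*Tlr5*), against 3.04% over all symbols. *Tnfrsf1b* and *Tlr5* had 1.51 and 2.21 CPM in the other gated nuclei of the 3 libraries together. They too passed the filter only because they were high in selected nuclei, so the 3.04% is no measure for these counts. *Il1r2*, a decoy receptor for interleukin 1, rested on 3 UMIs in Rom 6 HPA and 20 UMIs in Cont 6 HPA.

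The most abundant of the leading symbols included genes of leukocyte movement and signalling. *Dock2*, which activates Rac GTPases in migrating leukocytes, had 257 CPM in selected nuclei of Rom 6 HPA, 149 CPM in Cont 6 HPA and 230 CPM in 0 HPA, against 7.68, 6.03 and 4.74 CPM in the other gated nuclei. Its 182 UMIs were spread over 82 of the 290 nuclei. *C10orf54*, the immune checkpoint gene also called *Vsir*, had 88.4, 114 and 128 CPM in selected nuclei, against 5.55, 5.16 and 3.37 CPM in the other gated nuclei. The myeloid adaptor gene *Pram1*, the Rab GTPase gene *Rab44* and the leukotriene synthesis gene *Alox5ap* belonged to the same leading symbols. So did *Gif* and a feature whose shortened symbol begins with *Asap1*.

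Features named for 2 microRNAs of blood cells were among the leading symbols too. The feature *MIR-223*, named for a microRNA of the granulocyte lineage, had 84.4, 108 and 113 CPM in selected nuclei of Rom 6 HPA, Cont 6 HPA and 0 HPA, against 1.44, 0.915 and 0.8 CPM in the other gated nuclei. The feature *MIR-142*, named for a microRNA of all blood lineages, had 113, 87.5 and 81.8 CPM in selected nuclei, against 3.79, 4.87 and 3.77 CPM. The libraries count longer transcripts of these features and not the mature microRNAs.

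Of 8 matched genes of the NADPH oxidase list, 4 had 30 UMIs in selected nuclei, and all 4 were called higher. Genes this rare in the other gated nuclei pass the filter only where they are high in selected nuclei. The filter thus set this count, and the 3.04% over all symbols is no measure for it. *Ncf1*, a cytosolic subunit, had 56.3 CPM in selected nuclei of Rom 6 HPA, 91.6 CPM in Cont 6 HPA and 35.8 CPM in 0 HPA, against 2.19, 3.54 and 2.69 CPM in the other gated nuclei. *Cybb*, the catalytic subunit, had 76.3, 61.1 and 118 CPM, against 5.76, 4.49 and 3.03 CPM. *Cyba*, its membrane partner, and *Rac2*, the Rac GTPase of blood cells, were the other members. *Rac2* also stands on the list of pan-leukocyte genes, of which 3 of 5 measured were higher (*Dock2*, *Lcp1* and *Rac2*) and 2 were not called. The 3 higher genes had 6.17, 5.27 and 7.53 CPM in the other gated nuclei, so the filter set this count as well. The uncalled members were *Arhgdib*, with 313 CPM in Apobr/Epx/Prtn3 nuclei and 262 CPM in the other gated nuclei, and *Laptm5*, with 294 and 309.5 CPM.

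Granule genes outside the rule were partly higher. *Olfm4*, a protein of neutrophil granules, had 229 CPM in selected nuclei of Rom 6 HPA, 285 CPM in Cont 6 HPA and 343 CPM in 0 HPA, against 29.4, 41.4 and 35.9 CPM in the other gated nuclei. The cathelicidin gene *Camp* had 40.2, 46.8 and 66.5 CPM, against 13.8, 11.7 and 10.9 CPM. Of the 4 measured granule genes these 2 were higher in each library, against 3.04% over all symbols. The collagenase gene *Mmp8* and the protease activator gene *Ctsc* were not. *Camp*, at 12.1 CPM in the other gated nuclei of the 3 libraries together, passed the filter only because it was high in selected nuclei. Over the 3 libraries together, *Mmp8* had 196 CPM in Apobr/Epx/Prtn3 nuclei and 189 CPM in the other gated nuclei. By library it had 92.4, 305 and 61.4 CPM in selected nuclei, against 176, 291 and 64.0 CPM in the other gated nuclei. *Cebpe*, the transcription factor gene of late granulocyte maturation, was named after its values were seen and had 10 UMIs in 10 selected nuclei, too few for a comparison. The other 21 transcription factors of the myeloid list did not reach 30 UMIs either.

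Macrophage genes did not set the selected nuclei apart. Of 20 matched genes of the macrophage list 3 had 30 UMIs in selected nuclei and 0 were called. *Apoe*, a lipoprotein gene, had 370 CPM in Apobr/Epx/Prtn3 nuclei and 401 CPM in the other gated nuclei, *Lgals3* had 237 and 301 CPM, and the lysosomal protease gene *Ctsb* had 77.8 and 74.9 CPM. Of the more lineage-restricted genes, *Csf1r*, *Cd163*, *Marco*, *C1qa*, *C1qb* and *C1qc* had 0 UMIs in selected nuclei, *Mpeg1* had 1 and *Mrc1* had 7. The 290 nuclei held 935673 UMIs, and a count of 0 allows up to 3.21 CPM there. Common signalling genes were also nearly undetected, with 0 UMIs of *Jak1* and of the leukocyte gene *Ptprc* in selected nuclei and 0 and 1 UMI in the other gated nuclei. A symbol at 0 is therefore not read as a gene that is off.

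Granule and macrophage lists overlapped within single nuclei. Among Apobr/Epx/Prtn3 nuclei, 114 of 176 held UMIs of both lists, 22 of the granule list alone, 36 of the macrophage list alone and 4 of neither. A UMI of the macrophage list was found in 86.6% of selected and 86.8% of other gated nuclei, so it did not set nuclei apart. A UMI of the granule list was found in 69.3% of selected and 47.2% of other gated nuclei. The 33 myeloid surface and oxidase symbols had 902 CPM (813 to 999) in Apobr/Epx/Prtn3 nuclei with a granule UMI and 516 CPM (392 to 667) in those without.

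Lymphocyte genes were scarce. The list summed to 52.2 CPM in selected nuclei of Rom 6 HPA, 24.4 CPM in Cont 6 HPA and 25.6 CPM in 0 HPA, against 41.9, 18.9 and 25.8 CPM in the other gated nuclei. Of its 20 matched genes, 14 had 0 UMIs in selected nuclei. Genes of mast cells, basophils and thrombocytes gave 502, 415 and 261 CPM, against 521, 550 and 309 CPM, most of it from *Thbs1*, a gene of platelets and stroma.

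Epidermis and fibroblast genes were present in every group of nuclei at similar levels, and the lists of some other tail cells varied more. The keratin gene *Krt5* had 14491 CPM in Apobr/Epx/Prtn3 nuclei, 15566 CPM in Fndc7/Dmbt1 nuclei and 16373 CPM in the other gated nuclei. The epidermis list summed to 16587 CPM in Apobr/Epx/Prtn3 nuclei and 18921 CPM in the other gated nuclei, and the fibroblast list to 4451 and 4867 CPM. Rules of the same form for endothelial, erythrocyte, muscle or basal epidermis markers were met by 89.2% to 99.2% of selected nuclei and 92.5% to 97.7% of the other gated nuclei, nearly always by the basal epidermis rule, so epidermal UMIs did not separate them. Of the measured genes, 0 of 6 in the epidermis list, 0 of 5 in the fibroblast list, 0 of 3 in the melanocyte list and 0 of 3 in the erythroid list were called, and the endothelial, neural and interferon lists had none with 30 UMIs. Muscle genes were uneven, with 155 UMIs of the dystrophin gene *Dmd* in only 17 selected nuclei. The part of doublets and of free RNA in these levels was not tested.

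**Figure D3:**
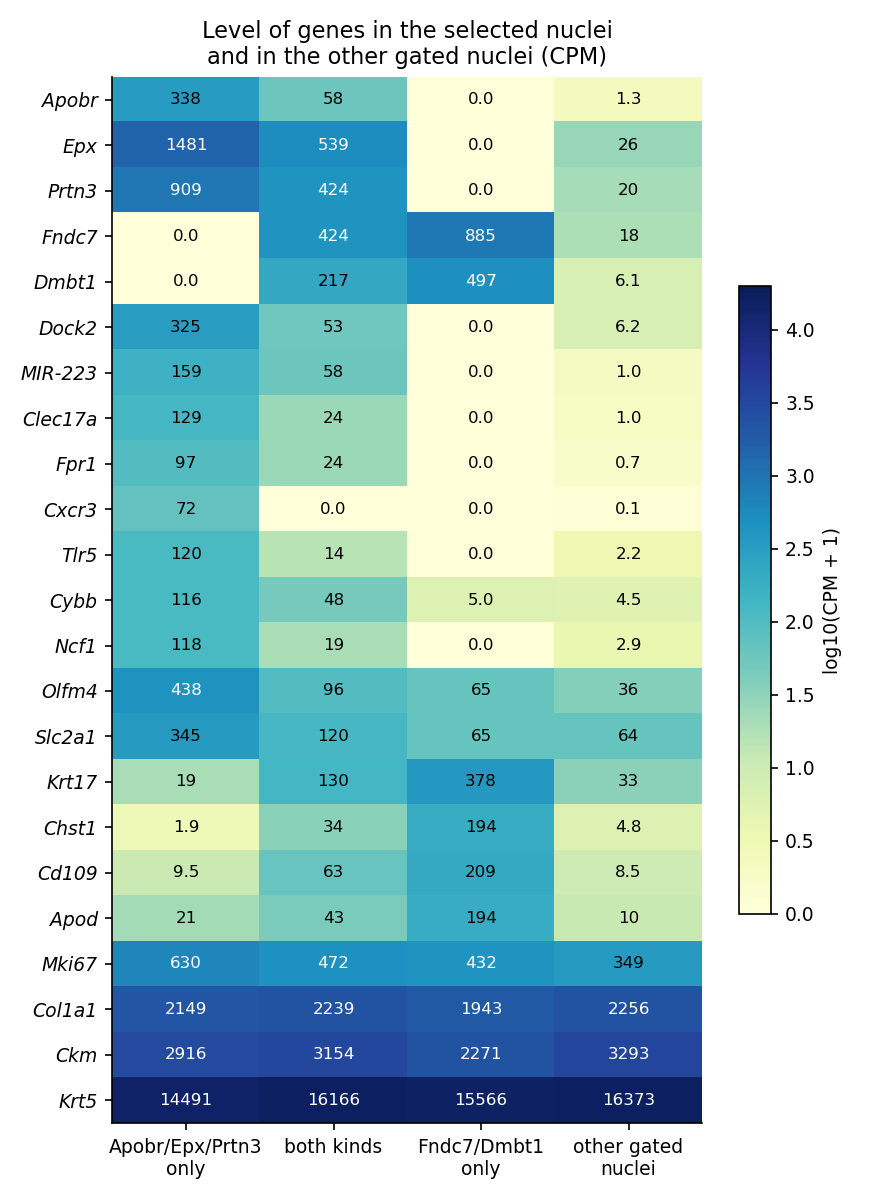
Level of 23 genes (CPM, printed in each cell, colour on a log10 scale) over the 3 libraries in Apobr/Epx/Prtn3, mixed and Fndc7/Dmbt1 nuclei and in the other gated nuclei. Leukocyte genes such as *Dock2* (325 CPM) stand out in the Apobr/Epx/Prtn3 column, *Krt17* (378 CPM) and *Cd109* (209 CPM) in the Fndc7/Dmbt1 column, and *Krt5* is high in all columns.

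The glucose transporter gene *Slc2a1*, a member of the list of romidepsin genes, was also higher in selected nuclei of each library. It had 285 CPM in Rom 6 HPA, 210 CPM in Cont 6 HPA and 235 CPM in 0 HPA, against 110, 47.3 and 39.3 CPM in the other gated nuclei. It had 345 CPM in Apobr/Epx/Prtn3 nuclei and 64.6 CPM in Fndc7/Dmbt1 nuclei, against 64.4 CPM in the other gated nuclei. It was the only gene called among the 10 measured on that list.

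Of 10 measured proliferation genes, 0 were over 2-fold higher or lower in every library. *Mki67*, a marker of cycling cells, had 478 CPM in Rom 6 HPA, 600 CPM in Cont 6 HPA and 527 CPM in 0 HPA, against 310.1, 338 and 406 CPM in the other gated nuclei. The 17 genes of the list summed to 2196 CPM (2072 to 2327) in Apobr/Epx/Prtn3 nuclei and 1948 CPM (1760 to 2151) in Fndc7/Dmbt1 nuclei, against 1569 CPM (1559 to 1579) in the other gated nuclei. It summed to 2451 CPM in nuclei selected by 5 endothelial markers and 2979 CPM in those selected by 5 erythrocyte markers. Single members went both ways, and *Mcm7* had 79.4 CPM in selected nuclei of Cont 6 HPA, against 91.7 CPM in the other gated nuclei. Histone deacetylase genes, the targets of romidepsin among them, summed to 265, 226 and 261 CPM in selected nuclei, against 199.9, 201 and 229.9 CPM in the other gated nuclei.

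The leading genes of the Fndc7/Dmbt1 nuclei differed from those of the Apobr/Epx/Prtn3 nuclei and were in part shared with the mixed nuclei. Among symbols with at least 15 UMIs in the Fndc7/Dmbt1 nuclei, the highest over the other gated nuclei were *Umod.3*, *Chst1*, *Cd109*, *SI:CH211-229D2.5*, *Apod* and *Krt17*. They were found after the split was made on the same nuclei, and a symbol rare elsewhere passes this filter only when high in them. *Chst1*, a keratan sulfate sulfotransferase gene, had 194 CPM (138 to 265) in Fndc7/Dmbt1 nuclei, against 4.78 CPM in the other gated nuclei. *Cd109*, a membrane protein that binds transforming growth factor β, had 209 CPM (150 to 282), against 8.47 CPM. *Krt17*, a keratin of injured epidermis, had 378 CPM (298 to 473), against 32.6 CPM. The Apobr/Epx/Prtn3 nuclei had 1.9 CPM of *Chst1*, 9.49 CPM of *Cd109* and 19.0 CPM of *Krt17*. The mixed nuclei lay between, with 33.7 CPM of *Chst1*, 62.6 CPM of *Cd109* and 130 CPM of *Krt17*. In turn, *Dock2*, *MIR-223*, *Clec17a*, *Fpr1*, *Cxcr3*, *Tlr5* and *Ncf1* had 0 UMIs among the 201213 UMIs of the Fndc7/Dmbt1 nuclei, where a count of 0 allows up to 14.9 CPM.

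The share of selected nuclei was highest in Cont 6 HPA, and the 3 kinds of nuclei did not follow the libraries alike. Selected nuclei were 1.16% (0.929 to 1.43) of gated nuclei in Rom 6 HPA, 2.03% (1.7 to 2.41) in Cont 6 HPA and 1.06% (0.833 to 1.33) in 0 HPA. Apobr/Epx/Prtn3 nuclei were 0.919% (0.716 to 1.16) in Rom 6 HPA, 1.01% (0.777 to 1.28) in Cont 6 HPA and 0.615% (0.446 to 0.828) in 0 HPA. Fndc7/Dmbt1 nuclei were 0.0799% (0.0293 to 0.174), 0.504% (0.345 to 0.71) and 0.229% (0.131 to 0.372), and mixed nuclei 0.16% (0.0826 to 0.279), 0.519% (0.358 to 0.729) and 0.215% (0.12 to 0.354). The intervals of Rom 6 HPA and Cont 6 HPA overlapped for Apobr/Epx/Prtn3 nuclei and did not overlap for Fndc7/Dmbt1 or mixed nuclei.

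The shares moved with depth and with the gate. The gate kept 16.8% of deposited nuclei in Rom 6 HPA, 11.2% in Cont 6 HPA and 22.2% in 0 HPA, and selected nuclei had medians of 2043, 3080 and 1937 UMIs, against 2174, 3407 and 2198 UMIs in the other gated nuclei. With each nucleus thinned to 1300 UMIs before the rule, the share was 0.586% (0.426 to 0.786) in Rom 6 HPA, 1.12% (0.874 to 1.41) in Cont 6 HPA and 0.658% (0.482 to 0.877) in 0 HPA. Apobr/Epx/Prtn3 nuclei were then 0.493%, 0.692% and 0.501% and had overlapping intervals. Fndc7/Dmbt1 nuclei were 0.04% (0.00824 to 0.117), 0.283% (0.168 to 0.447) and 0.0859% (0.0315 to 0.187). Over all deposited nuclei, the share was 0.194% (0.156 to 0.24) in Rom 6 HPA, 0.227% (0.189 to 0.269) in Cont 6 HPA and 0.235% (0.184 to 0.295) in 0 HPA, with overlapping intervals.

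**Figure D4:**
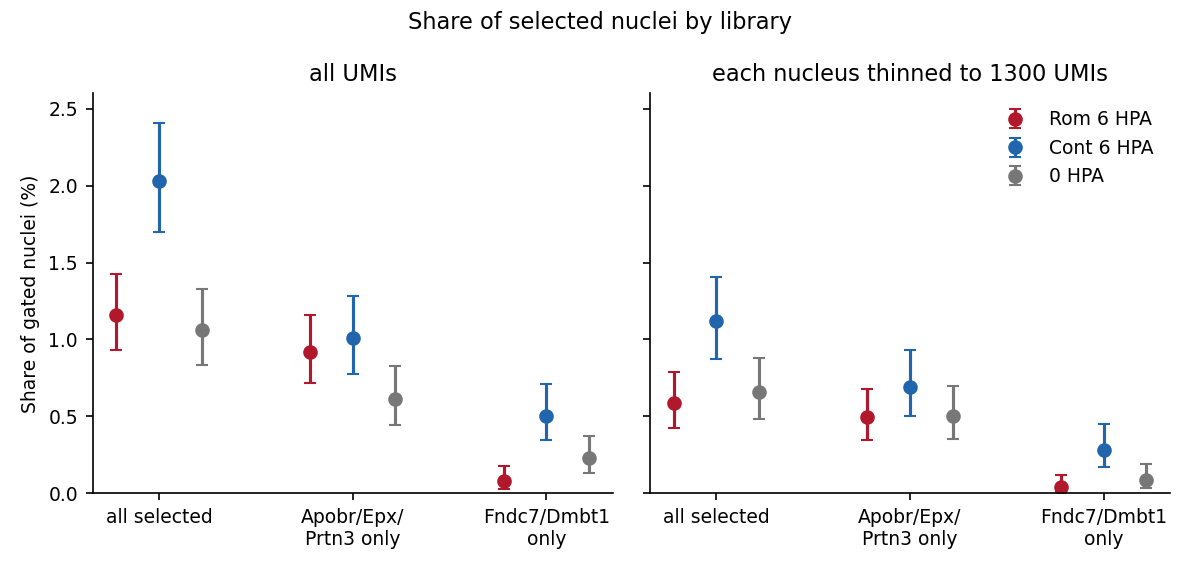
Share of gated nuclei (vertical axis, %) that are selected nuclei, Apobr/Epx/Prtn3 nuclei or Fndc7/Dmbt1 nuclei in each library, with all UMIs (left) and with each nucleus thinned to 1300 UMIs (right), with exact 95% binomial intervals. Cont 6 HPA is highest for all selected nuclei (2.03% and 1.12%), and the 3 libraries overlap for thinned Apobr/Epx/Prtn3 nuclei.

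Romidepsin was then compared with the untreated control at 6 HPA within the selected nuclei, 248879 UMIs in Rom 6 HPA and 491265 UMIs in Cont 6 HPA. Of 3003 features or symbols with at least 30 UMIs, 75 (2.5%) were over 2-fold higher and 117 (3.9%) over 2-fold lower in Rom 6 HPA. These counts include what counting error alone yields at such depth, and no call of a changed gene is made from them. Apobr/Epx/Prtn3 nuclei were 79.3% of the selected nuclei in Rom 6 HPA and 49.6% in Cont 6 HPA. Ratios within the Apobr/Epx/Prtn3 nuclei are therefore given for the genes described in detail. The median log2 ratio over these symbols was -0.02.

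A keratin gene and a matrix gene were among the 10 lowest symbols in Rom 6 HPA. *Krt17* had 3 UMIs (12.1 CPM) in 87 nuclei of Rom 6 HPA and 91 UMIs (185 CPM) in 129 nuclei of Cont 6 HPA, a log2 ratio of -3.94 (-6.25 to -2.35). In the other gated nuclei the log2 ratio was -2.20, and in Apobr/Epx/Prtn3 nuclei it rested on 1 UMI in Rom 6 HPA and 9 UMIs in Cont 6 HPA. *Vcan*, a matrix proteoglycan gene, had 3 UMIs in Rom 6 HPA and 37 UMIs in Cont 6 HPA, a log2 ratio of -2.64 (-4.99 to -0.98), with -1.30 in the other gated nuclei. The Apobr/Epx/Prtn3 nuclei held 1 and 30 of these UMIs.

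*Socs3*, a feedback inhibitor of cytokine receptors, had 4 UMIs (16.1 CPM) in Rom 6 HPA and 35 UMIs (71.2 CPM) in Cont 6 HPA, with a log2 ratio of -2.15 (-4.10 to -0.66). It was at -2.78 in Apobr/Epx/Prtn3 nuclei and -1.12 in the other gated nuclei. *Mmp8* had 23 UMIs (92.4 CPM) in Rom 6 HPA and 150 UMIs (305 CPM) in Cont 6 HPA, a log2 ratio of -1.72 (-2.43 to -1.08), with -1.69 in Apobr/Epx/Prtn3 nuclei and -0.72 in the other gated nuclei. Both genes were lower in Rom 6 HPA in selected and other gated nuclei alike. The remaining lowest symbols were *Fgfbp1*, *Tab2*, *Vps28*, *Gclc*, *Ano3*, *Gmnn* and *Slc12a4*, with 2 to 4 UMIs in Rom 6 HPA and 27 to 34 UMIs in Cont 6 HPA. Their ratios in the other gated nuclei were smaller in size, between -0.97 and -0.04, and in Apobr/Epx/Prtn3 nuclei they were between -2.62 and -1.12. These symbols passed the filter through Cont 6 HPA and were picked as the lowest in selected nuclei. The larger size there follows in part from that choice and is not read as a difference between the groups.

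Among the highest symbols, *Kiaa1551* had 100 UMIs (402 CPM) in 46 nuclei of Rom 6 HPA and 54 UMIs (109.9 CPM) in 35 nuclei of Cont 6 HPA, a log2 ratio of 1.87 (1.38 to 2.38). It was 1.45 in Apobr/Epx/Prtn3 nuclei and 0.75 in the other gated nuclei. *Cbfa2t3*, a transcriptional corepressor gene of blood cells, had 28 UMIs (113 CPM) and 13 UMIs (26.5 CPM), a log2 ratio of 2.09 (1.09 to 3.16), with 1.60 in Apobr/Epx/Prtn3 nuclei. *Cited4b*, a gene of the CBP/p300 coactivator-binding family, had 29 and 11 UMIs, a log2 ratio of 2.38 (1.34 to 3.53), with 2.14 in Apobr/Epx/Prtn3 nuclei. Both were also over 2-fold higher in the other gated nuclei, at 1.16 (1.00 to 1.32) for *Cbfa2t3* and 1.52 (1.37 to 1.67) for *Cited4b*. The antiproliferative gene *Btg2* (1.66) and the Notch feedback gene *Nrarp* (1.64) were further examples, and both were also higher in Rom 6 HPA in the other gated nuclei, at 1.37 and 0.85, and in Apobr/Epx/Prtn3 nuclei, at 1.53 and 2.20. The Hox genes *Hoxd11* (1.69) and *Hoxc9* (1.57) had 0.30 and 0.58 in the other gated nuclei. Within Apobr/Epx/Prtn3 nuclei they did not pass 2-fold, with 0.84 (0.12 to 1.58) for *Hoxd11* and 0.69 (-0.53 to 1.93) for *Hoxc9*. *Cldn11*, *Plekhh3* and *Ccdc18* completed the 10 highest, with 1.53, 2.16 and 1.2 in Apobr/Epx/Prtn3 nuclei. In the other gated nuclei they were at 0.16, 0.61 and 0.07.

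Over all selected nuclei, most leukocyte genes did not pass 2-fold between Rom 6 HPA and Cont 6 HPA, and several were lower in Rom 6 HPA within the Apobr/Epx/Prtn3 nuclei. On the pan-leukocyte list, *Rac2* was lower in Rom 6 HPA, with 8 UMIs (32.1 CPM) against 37 UMIs (75.3 CPM) in Cont 6 HPA and a log2 ratio of -1.23 (-2.54 to -0.10), and 0 of the 5 measured genes were over 2-fold higher. *Dock2* had 64 and 73 UMIs, a log2 ratio of 0.79 (0.28 to 1.30) in selected nuclei and 0.21 in Apobr/Epx/Prtn3 nuclei. *Lcp1* went the same way, with 28 and 31 UMIs and a log2 ratio of 0.83 (0.04 to 1.62) in selected nuclei. It was at 0.63 (-0.20 to 1.47) in Apobr/Epx/Prtn3 nuclei and 0.18 in the other gated nuclei. *Ncf1*, *Cybb*, *Fpr1*, *Clec17a*, *Tlr5*, *Tnfrsf1b*, *Olfm4* and *Camp* had log2 ratios between -0.70 and 0.44 over all selected nuclei, and each of their intervals held 0. The granule list summed to 442 CPM in Rom 6 HPA and 735 CPM in Cont 6 HPA, a log2 ratio of -0.73 (-1.05 to -0.42), beside -0.56 in the other gated nuclei, and *Mmp8* made the larger part of that difference.

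Within the Apobr/Epx/Prtn3 nuclei, *Rac2* had 6 UMIs in Rom 6 HPA and 32 UMIs in Cont 6 HPA, a log2 ratio of -1.95 (-3.50 to -0.67). *Ncf1* had 14 and 41 UMIs, a log2 ratio of -1.09 (-2.08 to -0.18), and *Olfm4* had 53 and 123 UMIs, a log2 ratio of -0.75 (-1.24 to -0.27). These intervals lay below 0, and those of *Cybb*, *Fpr1*, *Clec17a*, *Tlr5*, *Tnfrsf1b* and *Camp* held 0. The other gated nuclei were also lower in Rom 6 HPA for *Ncf1*, at -0.69 (-1.27 to -0.14), and *Olfm4*, at -0.49 (-0.65 to -0.34). For *Rac2* they were at 0.003 (-0.30 to 0.31). By list, the summed ratio in these nuclei was -0.97 (-1.32 to -0.62) for granule genes, -0.85 (-1.35 to -0.36) for the NADPH oxidase and -0.52 (-1.01 to -0.05) for myeloid surface genes. It was -0.48 (-0.89 to -0.09) for cytokine genes and -0.04 (-0.29 to 0.22) for pan-leukocyte genes. The oxidase list, which includes *Rac2*, had 280 CPM in Rom 6 HPA and 504 CPM in Cont 6 HPA. *Rac2* (33.6 and 130 CPM) and *Ncf1* (78.5 and 167 CPM) made the larger part of that difference, and *Cybb* was at -0.09 (-1.07 to 0.85). In the other gated nuclei the granule sum was -0.56 (-0.61 to -0.51) and the cytokine sum -0.36 (-0.41 to -0.31). The oxidase sum was -0.07 (-0.24 to 0.09) there and the myeloid surface sum -0.05 (-0.22 to 0.12). Over all selected nuclei the oxidase sum was -0.45 (-0.93 to 0.01) and the myeloid surface sum -0.16 (-0.62 to 0.29), with intervals that held 0. Of the rule symbols, *Epx* was at -0.68 (-0.94 to -0.42) in Apobr/Epx/Prtn3 nuclei, *Prtn3* at -0.40 (-0.71 to -0.10) and *Apobr* at 0.48 (-0.01 to 0.97). These symbols chose the nuclei, under unlike gates in the 2 libraries. Their ratios therefore describe the selection, and no change is read from them. Nuclei with 7 or more rule UMIs were 19 of these 69 nuclei in Rom 6 HPA and 44 of 64 in Cont 6 HPA. The part of this difference, and of the unlike gates, in the ratios was not tested.

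Other lists had at most 1 gene past 2-fold in a direction, apart from the romidepsin genes. That list was put together here with earlier results known, so its genes are not independent evidence. Of the 10 measured romidepsin genes 1 was higher and 2 were lower in Rom 6 HPA, against 2.5% higher and 3.9% lower over all symbols. *Txnip*, a thioredoxin-binding protein gene, was the higher one, with 41 UMIs (165 CPM) in Rom 6 HPA and 36 UMIs (73.3 CPM) in Cont 6 HPA, a log2 ratio of 1.17 (0.49 to 1.86), with 1.05 in Apobr/Epx/Prtn3 nuclei. *Krt17* and *Mmp8* were the lower ones. *Slc2a1* had 71 and 103 UMIs, a log2 ratio of 0.44 (-0.01 to 0.89) in selected nuclei and -0.11 in Apobr/Epx/Prtn3 nuclei, beside 1.21 in the other gated nuclei. Among deacetylase genes, *Sirt1* was higher (1.11, 0.19 to 2.04, with 1.46 in Apobr/Epx/Prtn3 nuclei), and *Hdac1* (-0.08, -1.21 to 0.97) and *Hdac7* (-0.60, -1.74 to 0.42) had intervals that held 0. *Dmd* was lower in Rom 6 HPA, with 19 UMIs in 5 nuclei against 128 UMIs in 10 nuclei of Cont 6 HPA, of which 56 lay in 1 nucleus. Its direction turned, at 1.33, in nuclei with 5 or more rule UMIs.

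**Figure D5:**
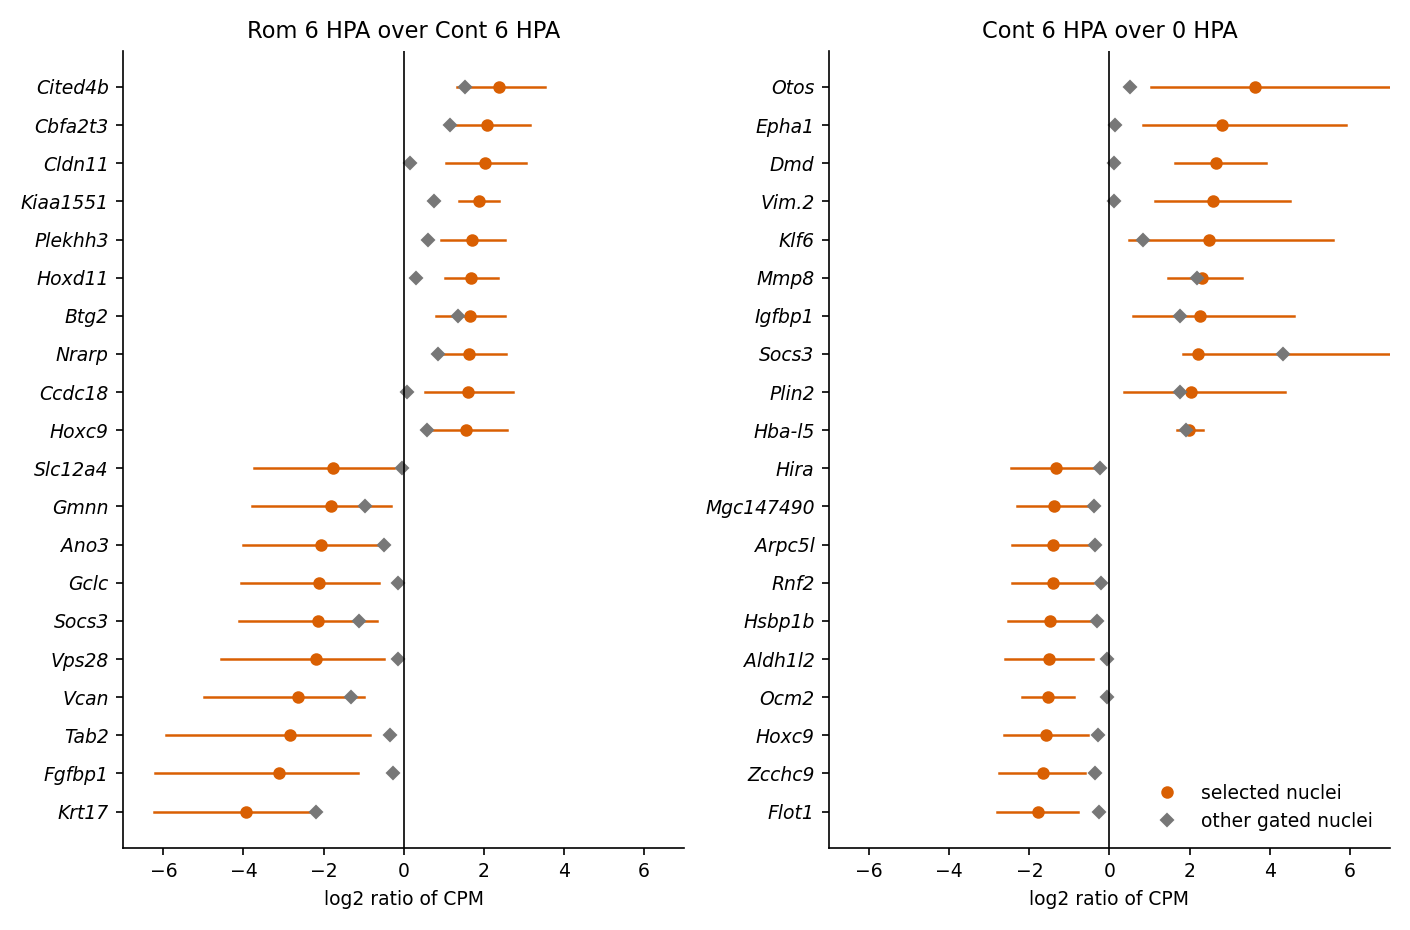
Log2 ratio of CPM (horizontal axis) of the 10 highest and 10 lowest symbols in selected nuclei (orange, with exact 95% counting intervals cut at 7) and in the other gated nuclei (grey diamonds), for Rom 6 HPA over Cont 6 HPA and Cont 6 HPA over 0 HPA. *Krt17* (-3.94) is lowest on the left, *Otos* (3.63) is highest on the right, and the value of *Socs3* on the right (2.22) is a lower bound. The panels share the Cont 6 HPA nuclei.

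The response to amputation was described by Cont 6 HPA and 0 HPA nuclei, 129 and 74 in number. Of 2830 features or symbols with at least 30 UMIs, 123 (4.35%) were over 2-fold higher and 66 (2.33%) over 2-fold lower in Cont 6 HPA. Of these, 79 and 59 had counting intervals clear of 0. The selected nuclei held 491265 UMIs in Cont 6 HPA and 195529 UMIs in 0 HPA, so symbols passed the filter mainly through Cont 6 HPA. Counting error also enters these counts, and no call of a changed gene is made from them. This comparison shares the Cont 6 HPA nuclei with the previous one, so a value that is high in Cont 6 HPA enters both.

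*Socs3* had 35 UMIs (71.2 CPM) in 25 selected nuclei of Cont 6 HPA and 0 UMIs in 0 HPA. With a floor of 3 UMIs for 0 HPA the log2 ratio was 2.22 (4.64-fold), and the lower counting limit was 1.84. In Apobr/Epx/Prtn3 nuclei it rested on 19 and 0 UMIs, with 1.40 at the floor and a lower limit of 0.96. *Mmp8* had 150 UMIs (305 CPM) in 72 nuclei of Cont 6 HPA and 12 UMIs (61.4 CPM) in 10 nuclei of 0 HPA, a log2 ratio of 2.31 (1.47 to 3.30), with 2.18 in the other gated nuclei. The transcription factor gene *Klf6* (28 and 2 UMIs), the lipid droplet gene *Plin2* (31 and 3 UMIs) and the growth factor binding protein gene *Igfbp1* (36 and 3 UMIs) had log2 ratios of 2.48, 2.04 and 2.26, and in Apobr/Epx/Prtn3 nuclei 1.64, 1.54 and 2.32, with intervals that held 0 there. For each of these genes the other gated nuclei were higher in Cont 6 HPA as well, with ratios from 0.83 upward. The globin gene *Hba-l5* had 862 UMIs in Cont 6 HPA and 86 UMIs in 0 HPA, a log2 ratio of 2.00 (1.68 to 2.33), beside 1.91 in the other gated nuclei.

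*Otos* (3.63), *Epha1* (2.80), *Dmd* (2.67) and *Vim.2* (2.58) were high in selected nuclei and lay between 0.10 and 0.51 in the other gated nuclei. *Otos* had 31 UMIs in Cont 6 HPA and 1 UMI in 0 HPA, and *Epha1* had 35 and 2 UMIs. In Apobr/Epx/Prtn3 nuclei *Epha1* was at 1.32 (-1.72 to 6.84) and *Vim.2* at 0.85 (-1.01 to 3.30), and their intervals held 0. *Otos* was at 2.98 (0.33 to 8.36) there and *Dmd* at 2.36 (1.33 to 3.62). Of the 60 *Vim.2* UMIs in Cont 6 HPA 26 lay in 1 nucleus, and *Dmd* again rested on few nuclei. In nuclei with 5 or more rule UMIs the *Dmd* ratio was -0.55.

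Ratios of leukocyte receptor and oxidase genes lay on both sides of 0 between Cont 6 HPA and 0 HPA. *Tnfrsf1b* had 29 UMIs (59.0 CPM) in Cont 6 HPA and 3 UMIs (15.3 CPM) in 0 HPA, a log2 ratio of 1.94 (0.25 to 4.303), and *Ncf1* had 45 UMIs (91.6 CPM) and 7 UMIs (35.8 CPM), a log2 ratio of 1.36 (0.20 to 2.75). *Fpr1* had 34 and 6 UMIs, a log2 ratio of 1.17 (-0.10 to 2.72). *Cybb* had 30 UMIs (61.1 CPM) and 23 UMIs (118 CPM), a log2 ratio of -0.95 (-1.78 to -0.10), and *Dock2* had 73 and 45 UMIs, a log2 ratio of -0.63 (-1.19 to -0.06). In the other gated nuclei *Tnfrsf1b* was higher in Cont 6 HPA as well, at 1.46 (0.55 to 2.46). *Ncf1*, *Fpr1*, *Cybb* and *Dock2* were at 0.40, 0.13, 0.57 and 0.35 in those nuclei. Within Apobr/Epx/Prtn3 nuclei the ratios were 2.32 (0.31 to 5.45) for *Tnfrsf1b*, on 24 and 2 UMIs, and 1.29 (0.11 to 2.69) for *Ncf1*. *Dock2* was at -0.62 (-1.18 to -0.04) there. The intervals of *Fpr1* (1.32, -0.06 to 3.04) and *Cybb* (-0.87, -1.79 to 0.07) held 0 in these nuclei. A shift in which nuclei were caught and a change of RNA within them cannot be told apart here.

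By list, the cytokine and chemokine genes had 2 of 4 measured genes over 2-fold higher in Cont 6 HPA (*Socs3* and *Tnfrsf1b*), against 4.35% over all symbols. The granule, NADPH oxidase and myeloid surface lists had 1 of 4, 1 of 4 and 1 of 2 (*Mmp8*, *Ncf1* and *Fpr1*). *Socs3* (35 and 0 UMIs), *Tnfrsf1b* (29 and 3 UMIs) and *Fpr1* (34 and 6 UMIs) passed the filter through Cont 6 HPA. These counts of higher genes were thus set in part by the filter, and the 4.35% is no measure for them. Summed over the list, levels in selected nuclei were 503 CPM in Cont 6 HPA and 322 CPM in 0 HPA for cytokine genes, a log2 ratio of 0.64 (0.24 to 1.06), beside 0.79 in the other gated nuclei. The oxidase list summed to 297 and 281 CPM (0.08, -0.38 to 0.55) and the myeloid surface list to 269 and 292 CPM (-0.12, -0.58 to 0.36). Of 10 measured proliferation genes 2 were lower in Cont 6 HPA, against 2.33% over all symbols. They were *Top2a*, a DNA topoisomerase gene, with 25 and 21 UMIs and a log2 ratio of -1.08 (-1.97 to -0.17), and the replication helicase gene *Mcm6*, with 16 and 14 UMIs, which was named after its values were seen. The deacetylase gene *Sirt1* was at -1.02 (-2.02 to -0.01), the only deacetylase gene of 3 past 2-fold. The lowest symbols were *Flot1* (-1.79), *Zcchc9* (-1.67), *Hoxc9* (-1.58) and *Ocm2* (-1.53), followed by *Aldh1l2*, *Hsbp1b*, *Arpc5l*, *Rnf2*, *Mgc147490* and *Hira*. All 10 had ratios between -0.38 and -0.05 in the other gated nuclei. In Apobr/Epx/Prtn3 nuclei *Aldh1l2* was at -0.04 (-2.17 to 2.54), *Hoxc9* had 12 and 5 UMIs with an interval of -1.61 to 1.86, and *Ocm2* was at -0.68 (-1.81 to 0.51). These 3 did not pass 2-fold there, and the other 7 had ratios between -2.85 and -1.09.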

How the data were processed

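Single-nuclei RNA-seq libraries of 3 conditions, 1 library each, were used. The authors counted UMIs per transcript feature and nucleus with Cell Ranger, and the deposited values are raw counts. The version is 6.0.0 in the submitters' processing notes and 3.0.2 in the file headers, and the genome build is not given in the sources used here. Counts of the 91648 features were summed over features of the same symbol (26 for *Dmbt1*, 5 for *Fndc7*, 2 for *Epx*, 1 each for *Apobr* and *Prtn3*), and features without a symbol were kept alone. Doublets were not removed. Other measurements of the study were not analysed here. A result among the symbols lower in selected nuclei is not reported here.

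Levels are CPM, the summed UMIs of a group of nuclei over its summed total. Intervals are 95% exact Poisson for levels, exact Clopper-Pearson for shares and exact conditional for ratios, and cover counting error only. No test was made. Symbols with at least 30 UMIs were compared, and those past 2-fold were called. A count of 0 was set to a floor of 3 UMIs for bounds. Nuclei were thinned to 1300 UMIs without replacement where depth could set a share. The ratio calculation was tested on simulated data.

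The genes named were the 5 rule symbols, the 15 highest and up to 8 lowest called symbols against the other gated nuclei by the ratio smallest in size over the libraries, the 10 highest and 10 lowest called symbols of each condition comparison whose interval excludes 0, and list members with at least 30 UMIs, up to 8 a list. The members and the 21 gene lists were chosen with earlier results of these data known. The split of the selected nuclei and the removal of the nucleus with most UMIs of a symbol were chosen after the data were seen. Alternatives changed the gate, the rule, the depth, the filter and the scaling. Python 3.11.15, numpy 2.4.6, scipy 1.17.1, pandas 2.3.3 and matplotlib 3.10.9 were used.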

Additional observations from a re-analysis of the deposited data

Results flagged for a closer look

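For 8 results the counting interval in selected nuclei lay on 1 side of 0 and that of the other gated nuclei on the other. The difference itself was not tested, and among the many symbols compared some such cases arise by counting error. Between Rom 6 HPA and Cont 6 HPA, the log2 ratio in selected nuclei was -0.87 for *Ttn*, with 0.09 in the other gated nuclei, and -1.77 for *Dmd*, with 0.19. Both are muscle genes, and *Dmd* rested on few nuclei. *Krt15* had -0.25 and 0.13, *Col1a1* had -0.16 and 0.31, and *Col1a2* had -0.25 and 0.19 in selected and other gated nuclei. The mitotic gene *Cenpf* had 0.59 in selected nuclei and -0.06 in the other gated nuclei. Between Cont 6 HPA and 0 HPA, *Cybb* had -0.95 in selected nuclei and 0.57 in the other gated nuclei, and *Col1a2* had 0.35 and -0.05. Within Apobr/Epx/Prtn3 nuclei, the Rom 6 HPA over Cont 6 HPA intervals of *Ttn* (-0.92) and *Dmd* (-2.08) lay below 0. Those of *Krt15* (-0.15, -0.38 to 0.08), *Col1a1* (-0.09, -0.28 to 0.10), *Col1a2* (-0.15, -0.38 to 0.08) and *Cenpf* (0.31, -0.09 to 0.72) held 0. For Cont 6 HPA over 0 HPA, *Cybb* (-0.87, -1.79 to 0.07) and *Col1a2* (0.24, -0.03 to 0.53) held 0 there too.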

How the results depend on the processing

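The shares of selected nuclei in Rom 6 HPA, Cont 6 HPA and 0 HPA were 0.224%, 0.416% and 0.273% without the gate, 2.22%, 3.92% and 1.63% with 2 or more rule UMIs, 0.626%, 1.31% and 0.587% with 5 or more, 0.586%, 1.12% and 0.658% after thinning, and 0.194%, 0.227% and 0.235% of deposited nuclei. They were 0.0404%, 0.0161% and 0.116% without nuclei that met another cell type rule, 0.506%, 1.34% and 0.501% without *Epx* in the rule, 0.613%, 1.27% and 0.658% without *Prtn3*, and 0.919%, 1.01% and 0.615% for Apobr/Epx/Prtn3 nuclei alone. Without *Fndc7* the Cont 6 HPA share was 1.23% and that of 0 HPA 0.759%, without *Dmbt1* they were 1.38% and 0.730%, and without *Apobr* the Rom 6 HPA share was 0.919%.

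Counts past 2-fold are given as higher and lower in selected nuclei, then in Rom 6 HPA over Cont 6 HPA, then in Cont 6 HPA over 0 HPA. They were 221 and 9, 282 and 470, and 399 and 311 with a filter of 15 UMIs. They were 61 and 0, 19 and 30, and 31 and 8 with 60 UMIs. They were 604 and 31, 1969 and 1839, and 1073 and 2366 with 3 UMIs, and 43 and 1, 14 and 21, and 21 and 8 after thinning. Without nuclei that met another rule they were 0 and 0, 3 and 2, and 0 and 5. Without the gate, 649 were higher and 0 lower in selected nuclei, 183 were higher in Rom 6 HPA and 146 lower in Cont 6 HPA. With 2 or more rule UMIs, the condition counts were 129 and 176, and 223 and 152. In Apobr/Epx/Prtn3 nuclei, chosen after seeing the data, 1 was lower in selected nuclei, and the condition counts were 41 and 61, and 80 and 23. These counts follow the number of symbols and nuclei that enter.

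With 5 or more rule UMIs, *Dmd* was at 1.33 for Rom 6 HPA over Cont 6 HPA and -0.55 for Cont 6 HPA over 0 HPA, and *Aldh1l2* was at 0.13 for Cont 6 HPA over 0 HPA. The cause was not tested. No paired analysis was possible because each condition had 1 library, and no replicate could be left out.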
